A study of Mus musculus with 6 samples.

Results

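The mitochondrial protein import machinery was followed in inguinal white fat, a subcutaneous depot, taken from male mice of WT (wild-type) genotype. Its members were the protein-coding genes of the deposited table named Tomm or Timm with a number, together with Timmdc1, Pam16, Dnajc19, Grpel1, Grpel2, Hspa9, Samm50, Mtx1, Mtx2, Chchd4, Pmpca and Pmpcb. This gave 37 of 57180 genes. Gfer belongs to the same pathway, but the table lists it as a nonsense-mediated decay gene, so it was left out of the counts, and its values are given separately. Feeding lasted 12 weeks: 3 libraries were from mice given high-fat food alone (HFD) and 3 from mice whose high-fat food held 0.5% hesperidin (HEP), a flavonoid glycoside of citrus peel. All 6 carried the same batch label. The sources used here give neither strain nor age, and the 6 samples held no diet other than HFD and HEP. Whether samples were separate animals is not labelled, and p-values therefore measure only the spread between these samples, which may be technical. Abundance was given in TPM, a unit that corrects for the length of transcripts and sums to the same total in each library. TPM keeps no read depth, so the depth is unknown and no counting interval could be given.

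Nearly all mitochondrial proteins are made in the cytosol and must be imported. The TOM complex of the outer membrane recognises them with receptors and passes them through a channel. From there they go to the SAM complex for insertion into the outer membrane, to the disulfide relay and small Tim chaperones of the intermembrane space, to the TIM22 complex for carriers of the inner membrane, or to the TIM23 complex. TIM23 works with the PAM motor, which pulls proteins into the matrix, where the processing peptidase removes their targeting sequence. White fat cells have fewer mitochondria than brown ones but rely on them for lipid synthesis, since these supply citrate and ATP.

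Promoter sequences were taken for the 3 members with the smallest unadjusted p and for the central channel subunit of TIM23. Each is the 150 bases before the annotated start, in the gene's direction, from RefSeq on GRCm38.p6. Capitals mark CCGGAAG, the core of the sites of ETS factors such as GABP, or the palindrome of the NRF1 site, searched with any base at its sixth position; both were searched on both strands.
Tomm20 (chr8:126945922-126946071, minus strand): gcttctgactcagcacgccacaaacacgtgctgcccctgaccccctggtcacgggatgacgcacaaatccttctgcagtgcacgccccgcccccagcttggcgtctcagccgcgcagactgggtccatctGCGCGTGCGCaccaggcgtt
Mtx1 (chr3:89213908-89214057, minus strand): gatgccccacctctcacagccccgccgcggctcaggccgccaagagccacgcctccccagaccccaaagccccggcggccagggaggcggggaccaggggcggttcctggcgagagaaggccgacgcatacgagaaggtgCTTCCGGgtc
Pmpcb (chr5:21737010-21737159, plus strand): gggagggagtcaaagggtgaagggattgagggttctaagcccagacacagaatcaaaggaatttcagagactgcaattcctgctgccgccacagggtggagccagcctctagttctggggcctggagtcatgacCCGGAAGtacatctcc
Timm23 (chr14:32201892-32202041, minus strand): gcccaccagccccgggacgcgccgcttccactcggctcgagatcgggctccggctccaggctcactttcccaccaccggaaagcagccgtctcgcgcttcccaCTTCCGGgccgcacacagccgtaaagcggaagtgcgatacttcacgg

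The 3 genes with the ETS letters in these windows, Mtx1, Pmpcb and Timm23, had lower HEP means in TPM, which turned higher with scaling to adipocyte markers. Tomm20 held the NRF1 palindrome without the ETS letters and had a higher HEP mean. Over the promoters of 300 bases (250 before and 50 after the start), which the table held for 32 of the 37 members, the ETS core was found in 15, or 46.9%. It was found in 19.2% of the promoters of 10212 protein-coding genes averaging 1 TPM or more and in 9.93% of all 27025 genes in the promoter table. The NRF1 palindrome, chosen after the Tomm20 sequence had been seen, was found in 4 members (12.5%), Tomm20, Chchd4, Pam16 and Timm8b, against 10.9% of those expressed genes. Their log2 fold changes were 0.44 for Tomm20, -0.21 for Chchd4, -0.07 for Pam16 and -0.20 for Timm8b, so only Tomm20 was higher. The median log2 fold change was -0.08 for the 14 tested members with the ETS core and -0.11 for the 16 whose promoters lacked it. A match describes the letters only and is not evidence of binding.

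The libraries held different amounts of other tissues. The 8 adipocyte markers (Adipoq, Plin1, Lep, Cidec, Lpl, Fabp4, Pparg and Cfd) were high in all 6 libraries, with a summed 41120 to 52801 TPM (HFD) against 30200 to 50758 TPM (HEP). The 16 B, plasma, T and NK cell markers were abundant in HFD replicate 3 and HEP replicates 1 and 3, where the 8 B and plasma cell markers summed to between 571 and 1161 TPM, and low in the other 3, at 8.48 to 8.93 TPM. HEP replicate 2 held 11229 TPM of the 8 skeletal muscle markers, against 46.1 to 1303 TPM elsewhere. The 6 liver markers summed to 1827 TPM in HEP replicate 2 and 1214 TPM in HFD replicate 1, against 12.2 to 85.1 TPM in the other 4. In bulk tissue, fewer cells of a type and less RNA per cell cannot be told apart.

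No import gene passed the test of HEP against HFD. Of the 37 members 35 averaged 1 TPM or more and entered the test. The exceptions were Tomm20l, a Tomm20 relative listed at 0 in every library, and Timm8a2, a Timm8a1 relative at 0.20 TPM or less. With limma on log2(TPM + 1) and Benjamini-Hochberg adjustment over all 15446 tested genes, 0 members were higher and 0 lower at an adjusted p under 0.05, where 0% of all genes were called. The smallest adjusted p among members was 0.879. At an unadjusted limma p under 0.05, 1 member was higher, Tomm20, where 0.68% of all genes were, and 0 were lower, where 1.13% were. The 3 HEP values lay above the 3 HFD values for Tomm20 alone, a pattern of 1.88% of all genes. They lay below for 5 members, Mtx1, Pmpcb, Timm10b, Timm21 and Tomm40l, a pattern of 3.58% of all genes.

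Most members had slightly lower HEP means: 26 of 35 were lower and 9 higher on log2(TPM + 1), whereas with scaling to the adipocyte markers all 35 were higher, as were 93.7% of all genes. Without that scaling 41.4% of all tested genes were lower and 58.6% higher. For the members the median log2 fold change was -0.11, beside 0.07 over all genes tested, and single members ranged from -0.31 to 0.44. With adipocyte scaling the medians were 0.34 for the members and 0.47 for all genes. This scaling divides all values of a library by the same factor, so the members' fold changes shifted by similar amounts. Their changes of direction are therefore not separate results. The median half-width of the members' 95% intervals was 0.41. The median depended on single libraries, being -0.015 when HFD replicate 2 was left out, -0.018 with HEP replicate 3 left out, -0.061 with HEP replicate 1 left out and -0.21 with HEP replicate 2 left out. With the lymphoid marker level as a covariate it was -0.05, with 16 members higher and 19 lower.

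**Figure D1:**
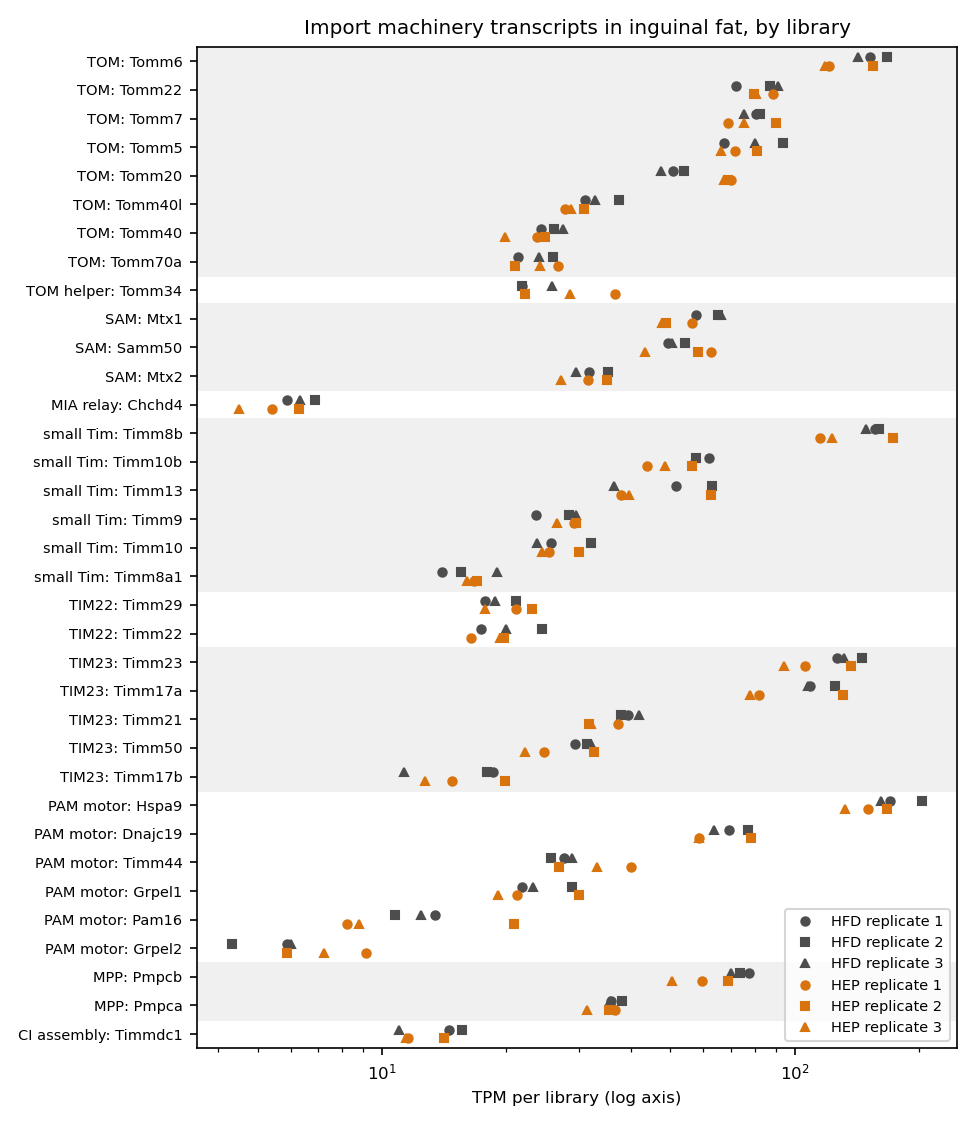
TPM of the 35 tested import members in each library on a log axis, grouped by complex (MIA relay, the intermembrane-space disulfide relay; MPP, the processing peptidase; CI, complex I), with a symbol for each replicate. Tomm20 is the 1 gene whose 3 HEP points all lie above its HFD points, at 67.5 to 70.1 against 47.5 to 53.8 TPM.

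The clearest separation among members was that of 1 gene of the TOM complex, Tomm20. Of the 8 tested TOM genes 6 had lower HEP means on log2(TPM + 1), as had 41.4% of all genes. Tomm20, the receptor that binds presequences, had 50.8, 53.8 and 47.5 TPM (HFD replicates 1 to 3) against 70.1, 69.1 and 67.5 TPM (HEP replicates 1 to 3). All HEP libraries were higher than all HFD libraries, including HEP replicate 2, which lay within or above the HFD range for 28 of 35 members, as for 68.7% of all genes. The means were 50.7 ± 3.13 TPM (HFD) against 68.9 ± 1.30 TPM (HEP) (SD, n = 3). The log2 fold change was 0.44 ± 0.12 (SE, limma), with a 95% interval from 0.14 to 0.73, a p of 0.0106 before and 0.879 after adjustment. Tomm20 ranked 35th by unadjusted p among the 15446 genes. Its fold change was positive under all 18 alternatives, from 0.38 to 0.89. The unadjusted limma p rose to 0.057 without HFD replicate 3 and to 0.0568 with lymphoid and muscle covariates.

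The other receptors did not separate the groups. Tomm22, the central receptor that organises the complex, had 72.0, 87.3 and 90.9 TPM (HFD) against 88.6, 79.7 and 80.6 TPM (HEP). The log2 difference was 0.00 ± 0.14 (SE), with a limma interval from -0.35 to 0.35. Tomm70a, the receptor for carrier proteins brought by cytosolic chaperones, had 21.3, 25.9 and 24.0 TPM (HFD) against 26.7, 21.02 and 24.1 TPM (HEP). Both groups overlapped for both genes. Ratios within a library do not depend on its scaling, and these were computed after the Tomm20 values had been seen. The TPM ratio of Tomm20 to Tomm22 was 0.706, 0.616 and 0.523 (HFD) against 0.791, 0.867 and 0.838 (HEP). Tomm20 to Tomm70a gave 2.38, 2.07 and 1.98 (HFD) against 2.62, 3.29 and 2.81 (HEP). Neither ratio overlapped between the groups. Tomm20 alone had already separated them, so these ratios are not separate support.

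Tomm40, the channel of the complex, had 24.3, 26.0 and 27.4 TPM (HFD) against 23.7, 24.8 and 19.8 TPM (HEP). The groups overlapped. The ratio of Tomm20 to Tomm40 was 2.09, 2.07 and 1.74 (HFD) against 2.95, 2.78 and 3.41 (HEP). It did not overlap, which again is not separate from the Tomm20 values. Tomm40l, a second channel gene, was the more abundant of the pair, with 31.01, 37.5 and 32.8 TPM (HFD) against 27.8, 30.9 and 28.7 TPM (HEP). Every HEP value of Tomm40l was lower than every HFD value, and the nearest were HFD replicate 1 and HEP replicate 2. Nr1i3, on the opposite strand with overlapping exons, had 3.76 TPM in HFD replicate 1 and 4.45 TPM in HEP replicate 2. Elsewhere Nr1i3 had 0.20 TPM or less, and the share of its reads in these Tomm40l values was not tested. The log2 fold change of Tomm40l was -0.20 ± 0.14 (SE, limma), and 0.24 with adipocyte scaling. The small subunits that steady the channel were at higher TPM: Tomm6 had 153, 167 and 142 TPM (HFD) against 121, 155 and 119 TPM (HEP). Tomm5 ranged from 66.1 to 93.9 TPM and Tomm7 from 69.1 to 90.3 TPM over the 6 libraries, with overlapping groups. Tomm34, a cytosolic cochaperone of import, had 21.9, 21.9 and 25.8 TPM (HFD) against 36.7, 22.2 and 28.5 TPM (HEP), highest in HEP replicates 1 and 3.

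**Figure D2:**
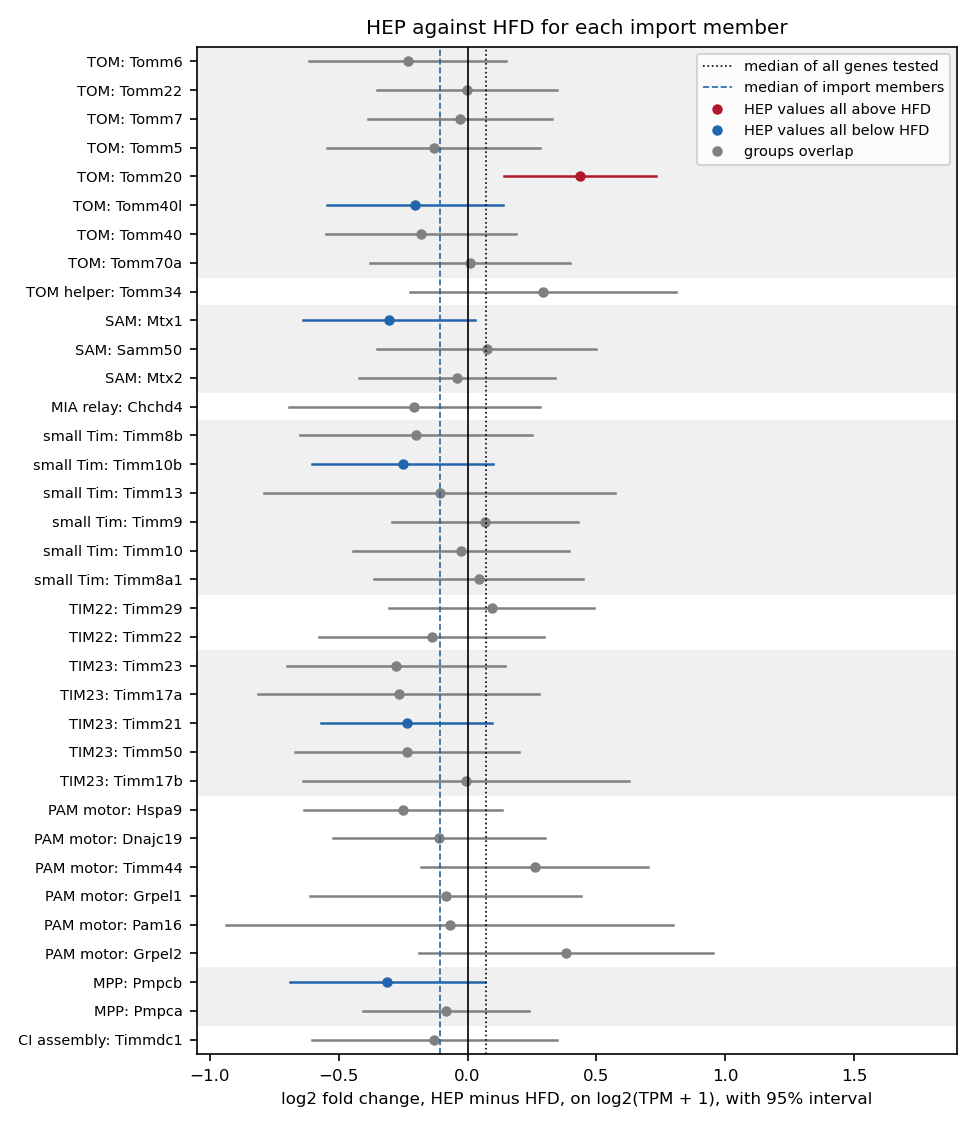
Log2 fold change of each import member, HEP minus HFD, on log2(TPM + 1) with its limma 95% interval, coloured by whether the 3 HEP values lie all above or all below the 3 HFD values. The Tomm20 interval, from 0.14 to 0.73, excludes 0, but the intervals are not adjusted for the number of genes. Its limma p after adjustment was 0.879. The median of members, -0.11, turns to 0.34 with adipocyte scaling. The median of all genes goes from 0.07 to 0.47 with that scaling.

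In the outer membrane beyond TOM, Mtx1 was the 1 SAM gene whose groups did not overlap. The SAM complex inserts barrel-shaped proteins: Samm50 is its channel, and the metaxins Mtx1 and Mtx2 face the cytosol. Mtx1 had 57.8, 65.3 and 66.4 TPM (HFD) against 56.4, 48.8 and 47.7 TPM (HEP). All HEP values were lower, HEP replicate 1 by little. The log2 difference was -0.30 ± 0.14 (SE), with a limma p of 0.0674 before and 0.879 after adjustment, and it was 0.14 with adipocyte scaling. Samm50 had 49.2, 54.3 and 50.5 TPM (HFD) against 62.6, 58.3 and 43.3 TPM (HEP), where HEP replicates 1 and 2 were above and HEP replicate 3 below all HFD libraries. Mtx2 ranged from 27.2 to 35.2 TPM, without separation.

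The intermembrane space holds a disulfide relay and the small Tim chaperones. Chchd4, the oxidoreductase of the relay, was among the least abundant members, with 5.86, 6.85 and 6.30 TPM (HFD) against 5.40, 6.29 and 4.49 TPM (HEP). Gfer, the sulfhydryl oxidase that recharges it, had 21.5, 23.04 and 20.7 TPM (HFD) against 19.4, 27.0 and 17.3 TPM (HEP). For Gfer HEP replicate 2 was the highest library and HEP replicates 1 and 3 the lowest. The small Tims escort hydrophobic proteins across this space. Of the 6 tested, 4 had lower and 2 higher HEP means on log2(TPM + 1), where 41.4% of all genes were lower. With adipocyte scaling all 6 were higher, as were 93.7% of all genes. Timm10b, which joins the TIM22 complex, had 62, 57.6 and 57.4 TPM (HFD) against 43.8, 56.5 and 48.5 TPM (HEP). Its groups did not overlap, although HEP replicate 2 lay just below HFD replicate 3. Gm45799, a gene on the same strand with overlapping exons, had 4.71, 4.97 and 4.32 TPM (HFD) against 6.02, 12.7 and 7.49 TPM (HEP). Their summed TPM, computed after the values had been seen, was 66.7, 62.5 and 61.8 (HFD) against 49.8, 69.3 and 56.02 (HEP), which overlapped. For Timm10b alone the log2 fold change was -0.25 ± 0.15 (SE, limma), with an adjusted p of 0.879, and it was 0.20 with adipocyte scaling.

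Timm9 and Timm10, which form the main chaperone ring, showed overlapping groups. Timm9 had 23.6, 28.4 and 29.4 TPM (HFD) against 29.1, 29.4 and 26.6 TPM (HEP). Timm10 had 25.7, 32.1 and 23.8 TPM (HFD) against 25.4, 30.0 and 24.4 TPM (HEP). Timm8b, the most abundant small Tim, had 157, 160 and 149 TPM (HFD) against 115, 174 and 122.98 TPM (HEP), so that HEP replicate 2 was the highest library and the other HEP libraries the lowest. Timm13 ranged from 36.4 to 63.2 TPM and Timm8a1, whose human counterpart is mutated in a deafness-dystonia syndrome, from 14.0 to 19.0 TPM. In the TIM22 complex, which inserts metabolite carriers, the channel gene Timm22 had 17.4, 24.4 and 19.9 TPM (HFD) against 16.4, 19.7 and 19.3 TPM (HEP). Its partner Timm29 ranged from 17.8 to 23.1 TPM.

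The TIM23 complex had lower HEP means for all 5 tested subunits, as had 41.4% of all genes, with a median log2 fold change of -0.24. With adipocyte scaling all 5 were higher, as were 93.7% of all genes, at medians of 0.20 and 0.47. Timm23, the central channel subunit, had 127, 146 and 132 TPM (HFD) against 106, 137 and 94.2 TPM (HEP); the log2 difference was -0.28 ± 0.18 (SE, limma). Timm17a, its partner in the translocase, had 109, 125 and 108 TPM (HFD) against 82.1, 131 and 77.8 TPM (HEP). Timm50, the receptor that guards the channel, had 29.3, 31.3 and 32.1 TPM (HFD) against 24.6, 32.6 and 22.1 TPM (HEP). In all 3 genes HEP replicates 1 and 3 lay below every HFD library and HEP replicate 2 within or above the HFD range. Timm21, which links TIM23 to TOM and to respiratory complexes, was the 1 subunit without overlap, with 39.5, 38.0 and 41.9 TPM (HFD) against 37.4, 31.7 and 32.1 TPM (HEP). The log2 difference was -0.24 ± 0.14 (SE), and its unadjusted limma p was 0.132. Timm17b, the second Timm17 gene, had 18.5, 17.9 and 11.3 TPM (HFD) against 14.7, 19.9 and 12.7 TPM (HEP).

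On log2(TPM + 1), 4 of 6 tested PAM motor genes had lower and 2 higher HEP means, where 41.4% of all genes were lower. With adipocyte scaling all 6 were higher, as were 93.7% of all genes. Hspa9, the matrix Hsp70 that drives the motor and the most abundant member, had 170, 204 and 162 TPM (HFD) against 151, 167 and 133 TPM (HEP). Its log2 fold change was -0.25 ± 0.16 (SE, limma), and 0.20 with adipocyte scaling. Timm44, which tethers Hspa9 to the channel, had 27.7, 25.7 and 28.8 TPM (HFD) against 40.2, 26.9 and 33.1 TPM (HEP). HEP replicates 1 and 3 were above and HEP replicate 2 within the HFD range, the reverse of the pattern of Timm23. Grpel2, a nucleotide exchange factor of Hspa9, had 5.89, 4.31 and 6.02 TPM (HFD) against 9.11, 5.86 and 7.22 TPM (HEP); the log2 difference was 0.38 ± 0.24 (SE). Grpel1, the main exchange factor, had 21.9, 28.9 and 23.2 TPM (HFD) against 21.2, 30.0 and 19.1 TPM (HEP). After adjustment the limma p was 0.879 for Hspa9, Timm44 and Grpel2 and 0.93 for Grpel1.

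Dnajc19, a J-domain protein of the inner membrane, ranged from 58.5 to 78.5 TPM. Pam16, which holds back the J-domain protein of the motor, had 13.5, 10.8 and 12.4 TPM (HFD) against 8.21, 20.9 and 8.79 TPM (HEP), a mean that was higher in HEP in TPM and lower on the log2 scale. The table holds a further gene, Gm9803, that shares 20.8% of the 31-base words of Pam16 transcripts and had 31.1 to 46.7 TPM except in HEP replicate 3, at 22.0 TPM. Reads of the pair could be divided between them by the authors' estimate, so the Pam16 values are uncertain. Their summed TPM was 60.1, 51.7 and 51.5 (HFD) against 39.3, 54.9 and 30.8 (HEP).

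The processing peptidase has a catalytic subunit, Pmpcb, and a substrate-binding one, Pmpca. Pmpcb had 77.4, 73.7 and 70.1 TPM (HFD) against 59.7, 68.9 and 50.3 TPM (HEP). All HEP values were lower, and HEP replicate 2 was closest to HFD. The means were 73.7 ± 3.66 and 59.6 ± 9.32 TPM (SD, n = 3), and the log2 fold change was -0.31 ± 0.16 (SE), the most negative of the members. Its unadjusted limma p was 0.0914 and its adjusted p 0.879, and with adipocyte scaling the log2 fold change was 0.14. Pmpca ranged from 31.4 to 38.2 TPM, with overlapping groups. Timmdc1, a Timm17 relative that assembles complex I, had 14.5, 15.6 and 10.95 TPM (HFD) against 11.5, 14.1 and 11.4 TPM (HEP).

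**Figure D3:**
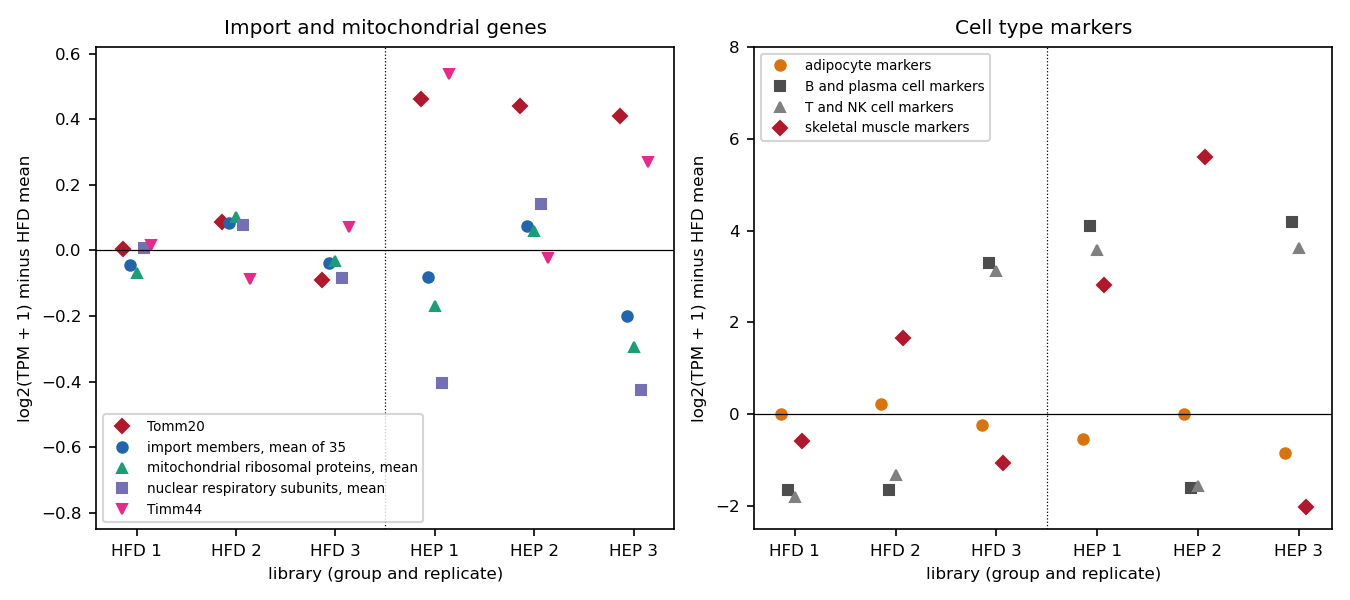
Log2(TPM + 1) in each library minus the HFD mean, for Tomm20, Timm44 and the means of 3 mitochondrial gene sets (left) and for the means of cell type markers (right). HEP replicate 2 lies near or above HFD for the 3 sets and is highest in muscle markers, while Tomm20 is high in all 3 HEP libraries.

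The library pattern recurred over the members, and it was counted after the values had been seen. HEP replicates 1 and 3 were both below every HFD library in 16 of 35 members, where 15.6% of all tested genes showed this. In 11 of the 35 members, against 12% of all genes, this held while HEP replicate 2 was not below every HFD library. HFD replicate 2 was the highest HFD library for 21 of 35 members, where 40.6% of all genes showed it. HEP replicate 2 was the highest HEP library for 25 of 35 members, where 30.7% of all genes showed it. HEP replicates 1 and 3 were both above every HFD library for 4 members, Tomm20, Timm44, Tomm34 and Grpel2, where 33.5% of all genes showed it. The summed muscle and liver markers were highest in HEP replicate 2, at 11229 and 1827 TPM. HEP replicates 1 and 3 were the HEP libraries rich in lymphocyte markers, and they had the lowest adipocyte sums, 31550 and 30200 TPM. HFD replicate 3, also rich in lymphocyte markers, had 41120 TPM of adipocyte markers, and its mean over the 35 members, 5.25 on the log2(TPM + 1) scale, equalled that of HFD replicate 1. The part of tissue content in these patterns was not tested beyond the fits with covariates.

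Gene pairs with related or joint roles kept their order of abundance in every library. Timm17a exceeded Timm17b by a TPM ratio of 5.57 to 9.55, Timm8b exceeded Timm8a1 by 6.91 to 11.2, and Grpel1 exceeded Grpel2 by 2.33 to 6.70. Tomm40 was below Tomm40l, at a ratio of 0.69 to 0.854, Timm10 below Timm10b at 0.414 to 0.58, and Pmpca below Pmpcb at 0.464 to 0.625. Grpel1 to Grpel2 was 3.71, 6.70 and 3.85 (HFD) against 2.33, 5.12 and 2.64 (HEP), with overlapping groups. Of the 6 pairs 0 passed the test of HEP against HFD. The smallest two-sided exact permutation p was 0.20, for Timm8b to Timm8a1 and for Pmpca to Pmpcb, and 0.36 after adjustment over the 6 pairs; with 3 samples a group the smallest p this test allows is 0.1.

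**Figure D4:**
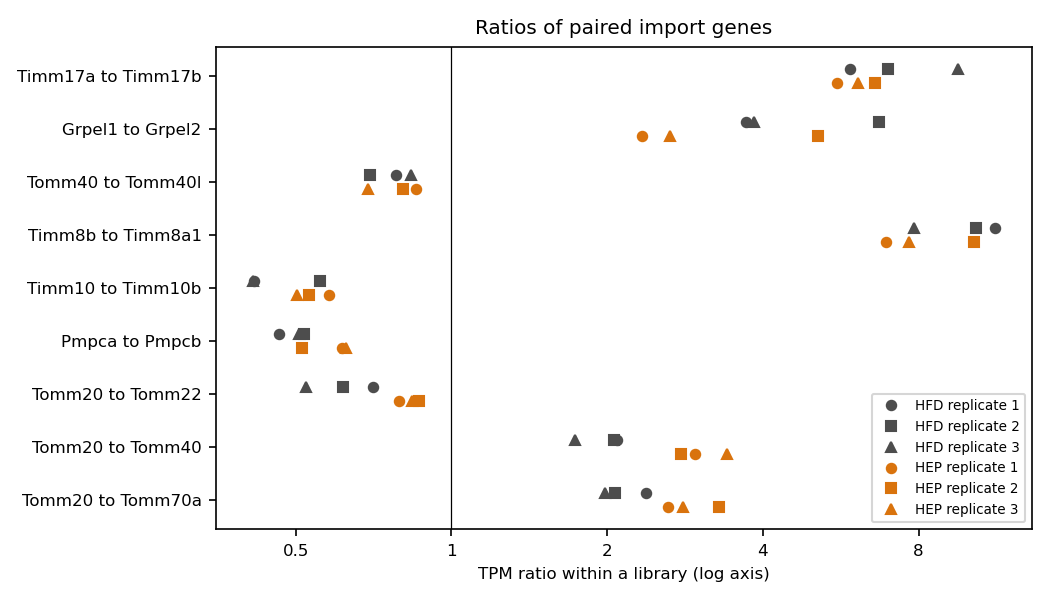
TPM ratio of paired import genes within each library, on a log axis, with HFD in grey and HEP in orange and a symbol for each replicate. The 6 upper pairs overlap between the groups, and the 3 ratios of Tomm20 at the bottom, chosen after its values were seen, do not. Tomm20 alone also separates the groups, so these ratios are not separate support.

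Other genes of import and protein maturation were read from lists of 77 genes, of which 76 were among those tested. These 76 also held 11 regulators of transcription and 6 genes of mitochondrial enzymes, Cs among them. In limma 0 passed in either direction. Of the 11 regulators 8 had higher and 3 lower HEP means on log2(TPM + 1), and all 6 enzyme genes had lower ones. Of the 76, HEP means on log2(TPM + 1) were higher for 30 and lower for 46, where 41.4% of all genes were lower. With adipocyte scaling all 76 were higher, as were 93.7% of all genes. The median log2 difference was -0.06, beside 0.07 over all genes tested. Oxa1l, the insertase for proteins moving from the matrix into the inner membrane, had 19.7, 21.1 and 24.3 TPM (HFD) against 31.2, 23.2 and 25.8 TPM (HEP). Mtch2, an insertase of the outer membrane, had 162, 150 and 129 TPM (HFD) against 106, 150 and 94.3 TPM (HEP). Hspd1, the chaperonin that folds imported proteins, had 163 ± 14.6 TPM (HFD) against 141 ± 13.3 TPM (HEP) (SD, n = 3), and its cochaperonin Hspe1 had 182 ± 9.64 and 177 ± 5.71 TPM. Among proteases, Lonp1 of the matrix had 37.7 ± 4.63 and 31.4 ± 3.33 TPM, and Yme1l1 of the inner membrane 36.0 ± 3.29 and 43.6 ± 8.24 TPM. Immt, the core of the MICOS complex that shapes the cristae, had 105 ± 11.6 and 88.7 ± 9.99 TPM. All of these groups overlapped.

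Of transcription factors that act on mitochondrial genes, Nrf1 had 6.20, 7.69 and 10.2 TPM (HFD) against 13.8, 6.45 and 12.99 TPM (HEP). Gabpa, the DNA-binding subunit of GABP, had 16.6, 18.1 and 19.2 TPM (HFD) against 23.9, 15.7 and 24.1 TPM (HEP). Both were highest in HEP replicates 1 and 3. Ppargc1a, the coactivator of mitochondrial biogenesis, was low throughout, between 0.97 and 2.01 TPM. Cs, the gene of citrate synthase, had 194, 193 and 175 TPM (HFD) against 145, 174 and 132 TPM (HEP). These are transcript levels, and mitochondrial content was not measured. The groups of Cs did not overlap, with HEP replicate 2 just below HFD replicate 3. It was the 1 gene of the 76 with all HEP values below, a pattern of 3.58% of all genes. Its limma p was 0.0763 before and 0.879 after adjustment.

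Other mitochondrial genes were read for comparison. The median log2 fold change was -0.23 over 77 nuclear-encoded subunits of the respiratory chain and -0.12 over 76 mitochondrial ribosomal proteins, and a difference between these sets was not tested. Lower HEP means were found for 73 of the 77 and for 63 of the 76, where 41.4% of all genes were lower. With adipocyte scaling 2 of each were lower, at medians of 0.22 and 0.31. In that fit 6.34% of all genes were lower, and their median was 0.47. The mean log2(TPM + 1) of the 35 import members was 5.25, 5.37 and 5.25 (HFD) against 5.21, 5.36 and 5.09 (HEP), with overlapping groups. That of the respiratory subunits was 7.87, 7.95 and 7.78 (HFD) against 7.46, 8.01 and 7.44 (HEP).

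Some members share sequence or position with other genes, which bears on how their reads were assigned. In GENCODE mouse release M21, Tomm20 shared 7.55% of its 31-base words with other genes. The 12 pseudogenes among them summed to 2.34, 5.55 and 4.40 TPM (HFD) against 6.22, 4.52 and 6.14 TPM (HEP). Timm23 shared 63.5% with 273 other genes, among which 10 processed pseudogenes summed to 1.97, 3.90 and 1.00 TPM (HFD) against 4.34, 17.2 and 4.71 TPM (HEP). Its values are uncertain to that extent. Tomm6 shared 71.8% of its words with Gm21981, an overlapping transcript of 0.93 to 1.77 TPM. Timm8a1 shared 41.8% with Gm9797, a processed pseudogene listed at 4.83 TPM in HFD replicate 2 and at 0 in the other libraries. With both summed, the ratio of Timm8b to them in HFD replicate 2 was 7.89 in place of 10.4. Introns of Tomm20 hold a small nucleolar RNA, Gm26397, listed at 81.9 TPM for HEP replicate 1 and at 0 in the other libraries. Within 1000 bases of the start of 7 of the 35 members, or 20%, another protein-coding gene started in the opposite direction, as for 9.65% of 13087 tested protein-coding genes. Timm8b shares such a start with Sdhd, a subunit of respiratory complex II, which had 133, 149 and 128 TPM (HFD) against 110, 139 and 107 TPM (HEP). Timm23 lies opposite Parg, the enzyme that removes poly(ADP-ribose), which had 10.3, 12.9 and 16.1 TPM (HFD) against 16.2, 10.4 and 16.2 TPM (HEP). HEP replicate 2 was the highest HEP library for Sdhd, as for Timm8b, and the lowest for Parg, unlike Timm23.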

How the data were processed

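The authors deposited TPM values per gene and library and their mean per group, which was not used. Per the submitters' processing notes, the tools were RSEM, HISAT2, StringTie, fastp and DESeq2, with no role or version listed. The genome build is not given in the sources used here, nor is the annotation. Per the labels' protocols, libraries were made with a TruSeq kit from 1 µg of TRIzol RNA, with 300 bp inserts and 15 PCR cycles. No source states strand handling. Where exons of a member overlap those of an opposite-strand gene, it is therefore unknown whether reads from the overlap were told apart. Among the pairs with such exons were Mtx1 and Thbs3, Tomm40l and Nr1i3, Tomm70a and Nit2, Timm10b and Arfip2, and Dnajc19 and Fxr1.

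Samples were grouped by title. Genes averaging 1 TPM or more over the 6 libraries entered the test on log2(TPM + 1) with limma 3.58.1 (R 4.3.3), trended variance, Benjamini-Hochberg adjustment over all genes, two-sided, threshold 0.05. A fold change on this scale understates changes of low genes. Pair ratios were tested by exact permutation. The fit was tested on simulated data with noise independent between genes, which leaves out shared differences in tissue content. Members and lists were chosen with earlier results of these data known. Values were given in full for members without overlap, filled to 10 by smallest p, and for a fixed set; others are named with ranges. Promoters came from RefSeq (GRCm38.p6), and gene overlaps and shared 31-base words from GENCODE M21, where all 37 IDs were found. Alternatives were other pseudocounts, filters, scalings and covariates, a replicate block and leaving out each library.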

Additional observations from a re-analysis of the deposited data

How the results depend on the processing

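TPM gives no depth, so precision rests on 3 libraries a group. No import gene passed under any of the 18 alternatives run. The pair test could not pass in any setting, since its smallest p is 0.1, or 0.2 with a library left out. Without HEP replicate 2, 1 gene of the whole table passed, so that the count over all genes ran from 0 to 1 when a library was left out. The members' median log2 fold change ran from -0.21 to -0.015 when a library was left out, was -0.24 with sample quality weights and turned to 0.34 with adipocyte scaling, which moved the median of all genes by 0.40. Other shifts of that median above 0.1 in size were -0.13 with quantile normalization, -0.17 with lymphoid and muscle covariates and -0.10 without HEP replicate 1. Same-numbered libraries deviated from their group means with correlations of -0.35, 0.37 and 0.65. Between libraries of different numbers the correlations ran from -0.71 to 0.50. Tissue content also differed between libraries, so these values cannot decide whether the numbers pair the samples. With the replicate block the members' median stayed -0.11 and 0 members passed. In that fit 576 genes had an unadjusted limma p under 0.05, against 279 without the block. At that level 8 members were lower and 3 higher without HEP replicate 2, where 6.23% of all genes were lower and 18.4% higher. With quality weights 10 members were lower and 2 higher, where 13.2% and 19.7% of all genes were; these came to 3789 and 5079 genes.

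Of 414 values for the 23 members with full statistics, 367 kept their direction and side of the threshold. With adipocyte scaling members shifted together by similar amounts, so the turns under it are not separate results. Adipocyte scaling turned 17: Mtx1 0.14, Pmpcb 0.14, Timm10b 0.20, Timm21 0.21, Tomm40l 0.24, Timm23 0.18, Hspa9 0.20, Tomm6 0.22, Tomm22 0.45, Tomm40 0.26, Timm17a 0.18, Timm17b 0.42, Timm50 0.20, Grpel1 0.35, Chchd4 0.18, Timm10 0.41 and Timm22 0.30. Tomm70a, at 0.01, turned to -0.047 with median-of-ratios scaling, -0.11 with quantile normalization, -0.053 with lymphoid content alone in the model, -0.14 with muscle content added and -0.013 with TPM rescaled without lymphoid, muscle, liver and mitochondrially encoded genes. Timm9 turned to -0.051 with quantile normalization and -0.13 with both covariates, and Samm50 to -0.14 with quality weights and -0.19 with both covariates. With the lymphoid covariate Timm17b was 0.22, Grpel1 0.051 and Timm10 0.076, and with both covariates Timm17b was 0.18. When a library was left out, Tomm22 ran from -0.10 to 0.063, Tomm70a from -0.071 to 0.10, Timm17b from -0.22 to 0.13, Grpel1 from -0.27 to 0.044, Samm50 from -0.030 to 0.23, Timm9 from -0.028 to 0.13 and Timm10 from -0.11 to 0.10. The cause was not tested.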
